A study of Mus musculus with 4 samples.

Results

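The CTCF sites listed around 4 genes of the plasma cell programme, Prdm1, Irf4, Xbp1 and Sdc1, were described in B cells and plasmablasts of mice. They are every peak of the deposited B cell and plasmablast lists whose midpoint lies in 1 of 4 windows of build mm9: chromosome 10 from 43700000 to 44600000 (Prdm1), chromosome 13 from 30500000 to 31200000 (Irf4), chromosome 11 from 5100000 to 5750000 (Xbp1) and chromosome 12 from 8450000 to 9100000 (Sdc1). The windows held 78 of the 36381 B cell peaks and 63 of the 31086 plasmablast peaks, together 141 of 67467. All values of the lists were used, and no peak was left out for a low score.

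CTCF-bound DNA had been sequenced after chromatin immunoprecipitation (ChIP-seq) from C57BL/6 spleen cells, with 1 CTCF library and 1 input library for each cell type. B cells were the untreated CD43- fraction from animals aged 6 weeks. Plasmablasts were CD138+ cells sorted by flow cytometry from mice given 50 µg lipopolysaccharide (LPS) retro-orbitally at 6 weeks of age, 3 days before the spleens were taken. LPS-treated B cells that were CD138- were not part of the comparison, so treatment and cell type cannot be told apart, nor can either be separated from the instrument, which was a Genome Analyzer II for B cells and a HiSeq 2000 for plasmablasts. RNA was not measured, so the cell types could not be checked against their marker genes.

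CTCF is a zinc finger protein that binds DNA at insulators and at the anchors of chromatin loops. Prdm1 encodes Blimp-1, the transcriptional repressor that shuts down the B cell programme as antibody-secreting cells form. Irf4 encodes a transcription factor needed for plasma cell formation, and Xbp1 encodes the unfolded protein response factor that expands the secretory machinery. Sdc1 encodes syndecan-1, the surface proteoglycan CD138 on which the plasmablasts were sorted.

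The DNA at the start of each gene is shown because the windows are named for these 4 genes. The 300 bases run from 250 before to 50 after the annotated start, 5′ to 3′ on the gene's strand, from RefSeq on GRCm38.p6, and all 4 genes had an entry. Capitals mark CCCTC on either strand, the letters CTCF is named for. These positions belong to another build than the peak lists and cannot be set against them.
Prdm1, chr10:44458699-44458998 (- strand): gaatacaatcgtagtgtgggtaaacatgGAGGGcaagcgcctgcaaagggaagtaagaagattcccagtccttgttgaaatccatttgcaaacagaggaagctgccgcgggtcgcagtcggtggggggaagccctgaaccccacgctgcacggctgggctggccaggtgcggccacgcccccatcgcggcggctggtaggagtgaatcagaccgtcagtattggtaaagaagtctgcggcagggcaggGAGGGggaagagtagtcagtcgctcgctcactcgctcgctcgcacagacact
Irf4, chr13:30748983-30749282 (+ strand): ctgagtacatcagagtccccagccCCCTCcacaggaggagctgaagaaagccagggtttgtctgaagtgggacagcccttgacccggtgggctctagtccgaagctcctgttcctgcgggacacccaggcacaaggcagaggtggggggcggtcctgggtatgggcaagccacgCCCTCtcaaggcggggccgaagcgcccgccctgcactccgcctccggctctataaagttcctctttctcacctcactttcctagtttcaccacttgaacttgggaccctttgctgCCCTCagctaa
Xbp1, chr11:5520391-5520690 (+ strand): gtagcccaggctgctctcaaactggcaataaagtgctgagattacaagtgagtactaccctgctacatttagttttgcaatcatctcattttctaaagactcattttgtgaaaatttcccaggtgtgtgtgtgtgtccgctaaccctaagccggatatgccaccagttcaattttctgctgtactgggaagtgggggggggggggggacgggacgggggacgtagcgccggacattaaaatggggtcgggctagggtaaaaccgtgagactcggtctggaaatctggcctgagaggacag
Sdc1, chr12:8771146-8771445 (+ strand): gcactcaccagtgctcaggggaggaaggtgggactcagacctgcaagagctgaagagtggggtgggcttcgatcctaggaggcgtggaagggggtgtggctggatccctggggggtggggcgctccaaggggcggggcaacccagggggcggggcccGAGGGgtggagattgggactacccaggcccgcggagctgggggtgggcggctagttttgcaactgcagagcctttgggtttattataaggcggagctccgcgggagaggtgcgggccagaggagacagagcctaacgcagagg
The Xbp1 sequence held no CCCTC, the Sdc1 sequence held 1, the Prdm1 sequence 2 and the Irf4 sequence 3. Of the 32851 RefSeq promoters of that length 66.0% hold it. Whether a listed peak lies on any of these promoters was not determined, since the lists are on mm9 and no mm9 sequence or annotation was used here.

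Fewer of the CTCF peaks in these windows were common to the lists than over the whole genome, by an amount within counting error. Peaks of the lists that overlapped each other by 1 bp or more were called shared. By that rule 46 of 78 B cell peaks were shared (59.0%, exact 95% binomial interval 47.3 to 70.0%), beside 67.9% of the whole B cell list. Of the 63 plasmablast peaks, 46 were shared (73.0%, interval 60.3 to 83.4%), beside 79.5% of the whole plasmablast list. Both whole-list values lie inside the intervals. Merged, the lists gave 95 sites in the 4 windows, of which 46 were shared, 32 were listed in B cells only and 17 in plasmablasts only. Shared sites were thus 48.4% of the merged sites, beside 57.8% over the whole lists. The unshared peaks were 41.0% of the B cell members against 32.1% of that list, and 27.0% of the plasmablast members against 20.5%. The intervals cover counting error only. With 1 library per cell type no test between the cell types was possible, and the sequencing depth of the libraries is unknown, and a site that a list lacks may still be bound in those cells.

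**Figure D1:**
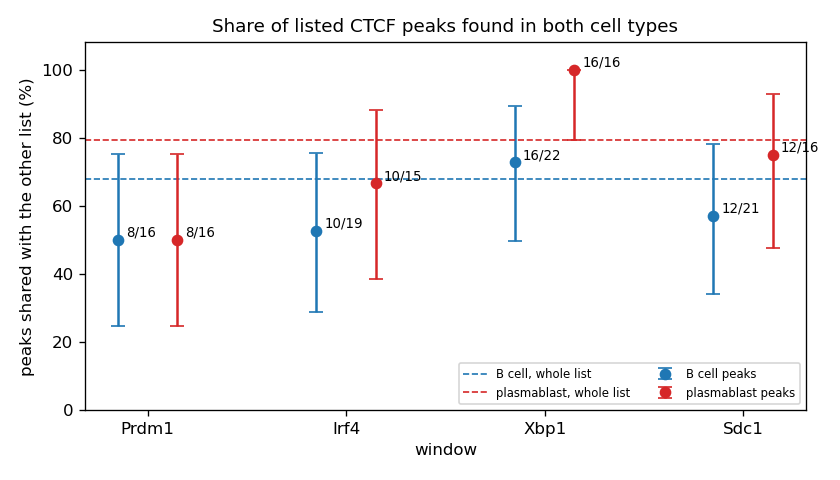
Percentage of the listed CTCF peaks that overlap a peak of the other list, by window (points with exact 95% binomial intervals, counts beside them) and for the whole lists (dashed lines), B cells in blue and plasmablasts in red. The Prdm1 window has the lowest plasmablast value, 8 of 16, and the Xbp1 window the highest, 16 of 16.

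The strength of a peak was read from the authors' own score as its percentile within its own list, because the unit of the score is not stated. The median score was 62.1 over the B cell list and 19.4 over the plasmablast list. Among the members, 46.2% of the B cell peaks and 52.4% of the plasmablast peaks stood at or above the median of their list. Few members belonged to the strongest sites of the genome: 4 of 78 B cell peaks (5.13%) and 6 of 63 plasmablast peaks (9.52%) lay above the 90th percentile. All 10 of these were shared, as were 99.7% of such B cell peaks and 96.8% of such plasmablast peaks over the whole lists. Of the 36 B cell members at or above the median score 31 were shared, beside 93.9% over the list, and of the 33 such plasmablast members 26 were shared, beside 89.7%.

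The Prdm1 window had the fewest peaks for its length and the least sharing. Each list held 16 peaks in its 900 kb, or 17.8 peaks per Mb, beside 14.5 in B cells and 12.7 in plasmablasts over chromosome 10. The next protein-coding genes in RefSeq order are Atg5, which encodes an autophagy protein, and Prep, which encodes prolyl endopeptidase. Of its 24 sites 8 were shared (33.3%), 8 were listed in B cells only and 8 in plasmablasts only. The shared percentage was thus 50.0% in either list (interval 24.7 to 75.3%). The whole-list value of 67.9% lies inside that interval for B cells and the value of 79.5% above it for plasmablasts. The windows were chosen with these lists known, and the Prdm1 value was not tested against that of the other windows.

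No site of the Prdm1 window reached the 90th percentile of either list. The shared site with the highest mean percentile was the B cell peak at 43722373 to 43722677, which had a score of 134.3 (73.0th percentile) and a plasmablast score of 40.8 (78.3rd percentile). The next was at 43868681 to 43868985, with scores of 160.2 (78.9th percentile) in B cells and 33.6 (70.5th) in plasmablasts. The third stood near the middle of the window at 44178320 to 44178624, with 102.8 (64.8th percentile) in B cells and 21.9 (54.0th) in plasmablasts, and the midpoints of the peaks lay 1 bp apart. These 3 sites were picked by their mean percentile over both lists, so ranks in the upper part of both follow largely from that choice.

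The site of the Prdm1 window at 43897188 to 43897492 ranked low in B cells and high in plasmablasts. Its score was 33.3 in B cells, the 31.1st percentile, and 45.6 in plasmablasts, the 82.8th percentile, a difference of 51.6 points. The plasmablast peak was set off by 92 bp from the B cell peak. Over all 24702 shared sites 25.9% differed by more than 25 points in either direction, and in this window it was 1 of 8. The largest difference the other way was at 43953233 to 43953537, with the 22.4th percentile in B cells (score 25.9) and the 3.49th in plasmablasts (score 4.8).

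Plasmablast-only peaks of the Prdm1 window were not all weak. Of the 8, 5 stood at or above that list's median score, whereas 74.9% of all plasmablast-only peaks stood below it. The strongest, at 44048253 to 44048431, had a score of 49.0 at the 85.5th percentile. A weak B cell peak lay beside it without touching it, at 44047881 to 44048185 with a score of 14.8 (3.77th percentile), and the midpoints were 309 bp apart. Next in rank were the peaks at 44180010 to 44180188 (score 26.5, 61.1st percentile) and 44012129 to 44012307 (score 25.8, 60.1st percentile). The former stood 1627 bp from the nearest B cell midpoint, that of the shared site near the middle of the window, and the latter 35815 bp from any.

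The B cell-only peaks of the same window were led by 2 of similar strength. The peak at 43723591 to 43723895 had a score of 124.1 (70.5th percentile) and stood 1218 bp from the top shared site of the window, which plasmablasts listed without this companion. The peak at 43764593 to 43764897 had a score of 119.5 (69.4th percentile), with the nearest plasmablast midpoint 26383 bp away. The remaining 6 lay between the 0.95th and the 29.3rd percentile.

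Shared and unshared sites of the Prdm1 window were not interspersed evenly. From 255.3 to 470.4 kb after the window's start, 8 consecutive sites were unshared, 6 of them in plasmablasts only and 2 in B cells only. The 6 plasmablast scores ran from 4.8 to 49.0, with 3 at or above the list median, and the 2 B cell scores were 12.0 and 14.8. This run was noticed in the data and was not tested. The widest gap between plasmablast peaks of the window was 162.1 kb and held 2 B cell-only peaks. No peak of either list lay in the last 118.7 kb of the window, and the next peaks after it, at 44720709, were shared.

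**Figure D2:**
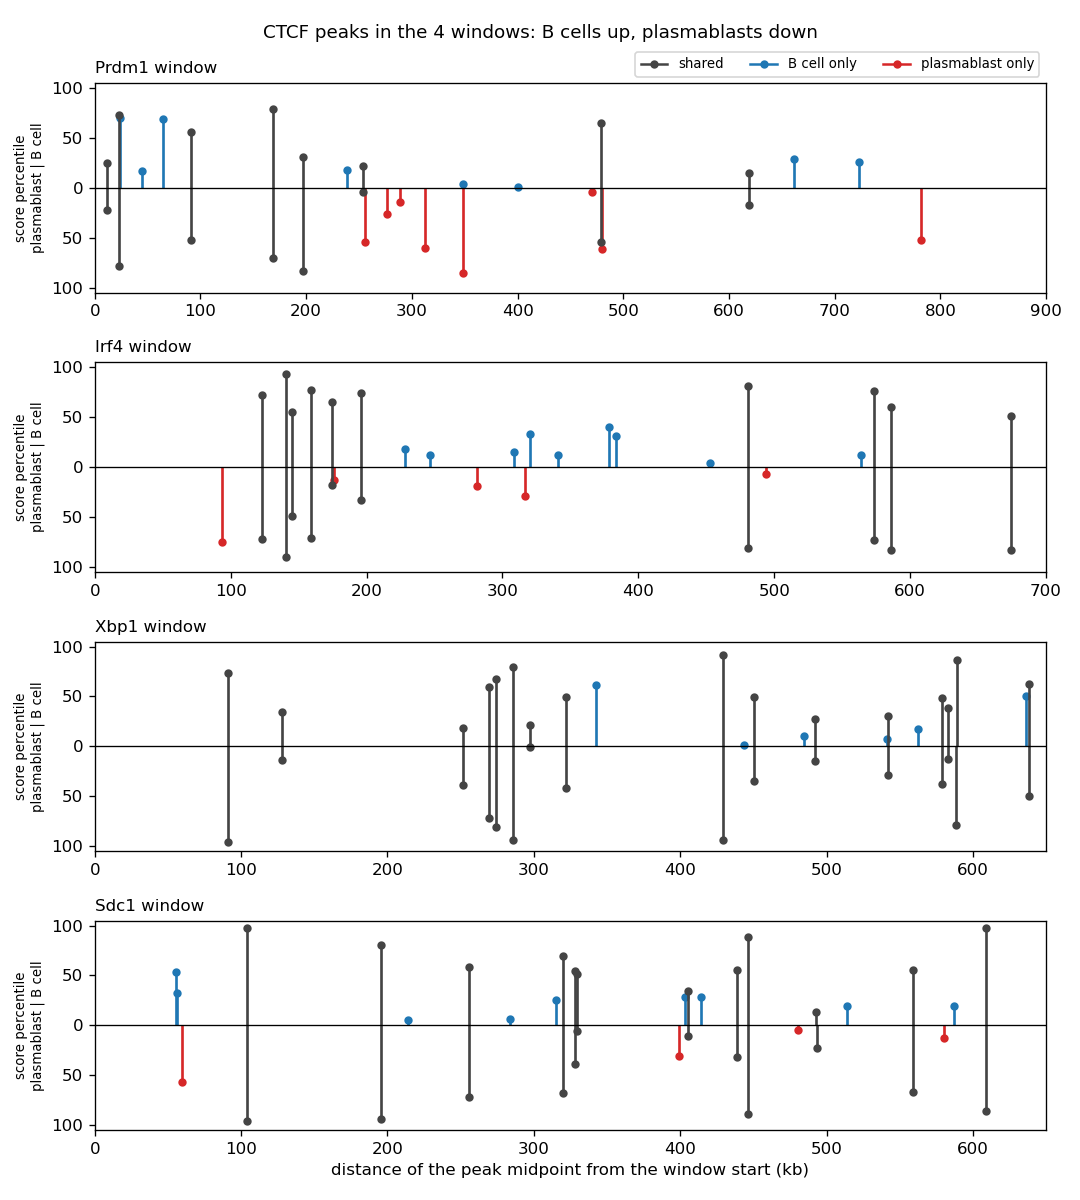
CTCF peaks along each window, by the distance of the peak midpoint from the window's start in kb. Line height is the score percentile within the list, B cells upward and plasmablasts downward, in grey for shared, blue for B cell only and red for plasmablast only. The runs of unshared sites are seen in the Prdm1 window from 255.3 to 470.4 kb and in the Irf4 window from 228.5 to 452.8 kb.

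By B cell score, a central stretch of weak, unshared sites in the Irf4 window stood between groups of stronger, shared ones. In plasmablasts the shared sites just before the stretch, at 30674484 and 30695896, were weak as well, with scores of 7.8 and 12.1. B cells had 19 peaks in its 700 kb and plasmablasts 15, or 27.1 and 21.4 per Mb, beside 11.9 and 10.1 over chromosome 13. Irf4 lies between Dusp22, a dual specificity phosphatase gene, and Exoc2, a gene of the exocyst complex. Of 24 sites 10 were shared (41.7%), 9 were B cell only and 5 plasmablast only. The shared percentage was 52.6% in B cells (interval 28.9 to 75.6%) and 66.7% in plasmablasts (38.4 to 88.2%), and both intervals hold the whole-list values.

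Between 228.5 and 452.8 kb after the start of the Irf4 window, 10 consecutive sites were unshared. Of these, 8 were B cell peaks with scores from 14.8 to 44.5 and 2 were plasmablast peaks with scores of 8.2 and 10.9. All 10 were below the median score of their list, as were 90.5% of all B cell-only and 74.9% of all plasmablast-only peaks. The stretch held 5 of its B cell-only peaks inside the widest gap of the plasmablast list, 164.0 kb. It was noticed in the data, and no test of it was made. Earlier in the window, from 122.9 to 174.6 kb, 5 consecutive sites were shared, a run likewise noticed in the data and not tested.

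The strongest site of the Irf4 window stood in that shared group, at 30640785 to 30641089, with a B cell score of 237.1 (93.3rd percentile) and a plasmablast score of 56.1 (90.5th percentile). The site at 30980396 to 30980700, after the unshared stretch, had scores of 173.2 (81.7th percentile) and 44.1 (81.5th percentile). The third, at 30658689 to 30658993, had 155.6 (77.8th percentile) and 34.5 (71.5th percentile). These sites were picked by their mean percentile over both lists, so their high ranks follow largely from that choice. All 10 shared sites lay at or above the median score of the B cell list, beside 17141 of 24702 shared peaks over that list. All 9 B cell-only peaks lay below it, beside 90.5% of all B cell-only peaks. The classes thus did not overlap in B cell score among these few peaks, and most peaks of the whole list lay on the same sides.

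Sharp differences in rank within the Irf4 window went in either direction. The site at 30674484 to 30674788 had a B cell score of 104.7 (65.4th percentile) and a plasmablast score of 7.8 (17.5th percentile), a difference of -47.9 points. Its neighbour at 30695896 to 30696200 followed with 140.8 (74.5th percentile) and 12.1 (33.2nd percentile), or -41.3 points. At the far end the order turned: the site at 31174360 to 31174664 had 64.8 (51.3rd percentile) in B cells and 46.5 (83.5th percentile) in plasmablasts, 32.2 points higher. These 3 of the 10 sites differed by more than 25 points, beside 25.9% over all shared sites. The rank correlation of the scores over the 10 sites was 0.18, a description of few sites within 1 library pair.

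One unshared plasmablast peak of the Irf4 window was strong. It was the first of the window, at 30593847 to 30594025, with a score of 38.1 at the 75.4th percentile, and the nearest B cell midpoint was 28921 bp away. The other 4 plasmablast-only peaks lay between the 6.90th and the 29.2nd percentile. The strongest B cell-only peak, at 30878288 to 30878592, had a score of 44.5 (40.1st percentile) and stood 61899 bp from any plasmablast midpoint.

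**Figure D3:**
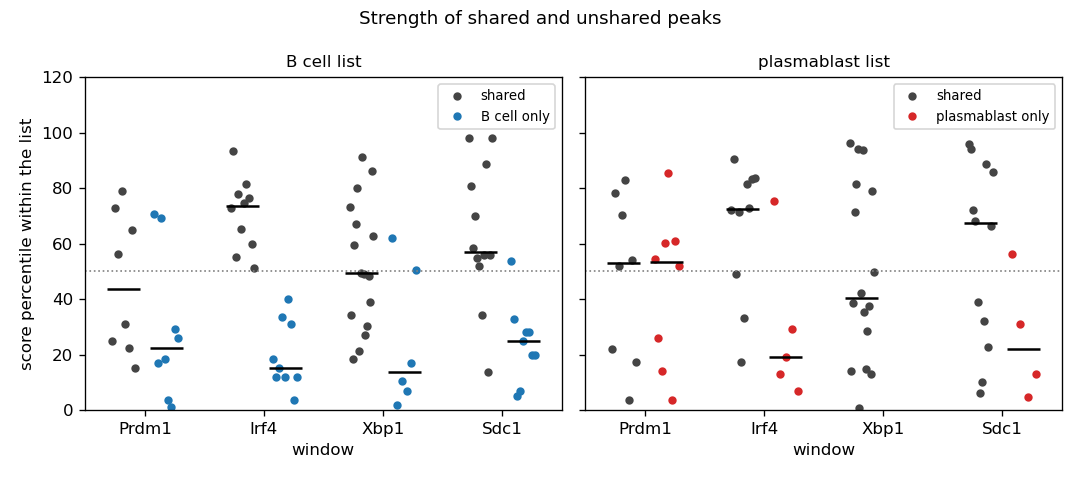
Score percentiles of the shared and unshared peaks of each window in the B cell list (left) and the plasmablast list (right), 1 point per peak, with bars at the medians and a dotted line at 50. The horizontal spread of the points has no meaning. All 16 plasmablast peaks of the Xbp1 window were shared, so it has no red points.

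In the Xbp1 window every plasmablast peak had a B cell counterpart. The list held 16 plasmablast peaks in 650 kb, all shared (100%, interval 79.4 to 100%, beside 79.5% of the whole list), so that the whole-list value lies at the edge of the interval. Of the 22 B cell peaks, which make up all sites of the window, 16 were shared (72.7%, interval 49.8 to 89.3%). The densities were 33.8 and 24.6 peaks per Mb, beside 24.9 and 20.5 over chromosome 11. Xbp1 is flanked by Znrf3, which encodes a ubiquitin ligase that limits Wnt receptors, and by Ccdc117.

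The sharing in the Xbp1 window extended to weak plasmablast peaks. Their median percentile was 40.3, and 4 of the 16 lay at or below the 25th percentile of the list. The weakest, at 5396999 to 5397177, had a score of 3.4 (0.68th percentile) and still overlapped a B cell peak, which stood at the 21.1st percentile. Among all plasmablast peaks at or below the 25th percentile, 4818 of 7818 were shared.

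The 3 shared sites of the Xbp1 window with the highest mean percentile were picked by that mean over both lists. Their high ranks in both cell types thus follow largely from that choice. The site at 5529135 to 5529439 had a B cell score of 225.1 (91.4th percentile) and a plasmablast score of 62.1 (93.8th percentile), with midpoints 1 bp apart. The site at 5385288 to 5385592 had 164.9 (79.9th percentile) and 63.0 (94.2nd percentile). The site at 5190719 to 5191023, the first of the window, had 135.2 (73.2nd percentile) and 69.3 (96.4th percentile), which was the highest plasmablast score of all 63 members and the largest difference towards plasmablasts in the window, 23.2 points. The largest difference towards B cells was at 5682655 to 5682959, with scores of 42.6 (38.8th percentile) and 6.9 (13.0th percentile).

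A run of 8 consecutive shared sites, noticed in the data and not tested, covered the stretch from 90.9 to 322.2 kb of the Xbp1 window. The 6 B cell-only peaks all lay beyond it. The strongest of them followed directly, at 5442196 to 5442500, with a score of 92.6 (61.9th percentile) and the nearest plasmablast midpoint 20170 bp away. Another, at 5736184 to 5736488, had a score of 63.0 (50.5th percentile) and stood 1825 bp from the last shared site. The other 4 lay between the 1.66th and the 16.9th percentile.

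In the Sdc1 window, around the gene of the marker the plasmablasts were sorted on, the strongest CTCF sites were common to both cell types. So were nearly all strong sites of the genome: 99.7% of B cell and 96.8% of plasmablast peaks above the 90th percentile were shared. B cells had 21 peaks in 650 kb and plasmablasts 16, or 32.3 and 24.6 per Mb, beside 12.0 and 10.04 over chromosome 12. The neighbours of Sdc1 are Pum2, which encodes an RNA-binding repressor of translation, and Laptm4a, which encodes a lysosomal membrane protein. Of 25 sites 12 were shared (48.0%), 9 were B cell only and 4 plasmablast only. The shared percentage was 57.1% in B cells (interval 34.0 to 78.2%) and 12 of 16 in plasmablasts (interval 47.6 to 92.7%), and both intervals hold the whole-list values.

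A pair of sites near the ends of the Sdc1 window had the highest B cell scores among all 78 members, 279.7 each at the 98.0th percentile. The one at 8554184 to 8554488 had a plasmablast score of 68.0 (96.0th percentile). The other, at 9058896 to 9059200, had a plasmablast score of 49.1 (85.7th percentile), and the midpoints coincided. The third was at 8896126 to 8896430, with 209.3 (88.7th percentile) and 52.9 (88.5th percentile). The 3 were picked by their mean percentile over both lists, so their high ranks follow from that choice.

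Near the middle of the Sdc1 window, shared sites 1872 bp apart differed in how they ranked in plasmablasts. The site at 8777646 to 8777950 had scores of 73.2 (54.9th percentile) in B cells and 14.2 (39.0th percentile) in plasmablasts. The site at 8779518 to 8779822 had 65.8 (51.8th percentile) and 5.5 (6.12th percentile), a difference of -45.6 points, the largest of the window towards B cells. The largest towards plasmablasts was 13.8 points, at 8705770 to 8706074, with scores of 82.4 (58.3rd percentile) and 35.1 (72.1st percentile).

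Unshared B cell peaks of the Sdc1 window were about as weak as such peaks elsewhere. Of the 9, 8 stood below the list median (88.9%, beside 90.5% of all B cell-only peaks), and the exception, at 8505317 to 8505621, had a score of 70.4 (53.8th percentile). The strongest plasmablast-only peak, at 8509481 to 8509659, had a score of 23.3 (56.4th percentile). Its midpoint was 3098 bp from the nearest B cell midpoint, that of another B cell-only peak, which stood 1003 bp from the one at 8505317. This end of the window thus held 3 peaks within a few kb with no overlap between the lists.

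Over the 4 windows the shared sites kept much of their order of strength between the cell types. The rank correlation of the scores over the 46 sites was 0.77, beside 0.70 over all 24702 shared sites. It is across sites of the same libraries, which are not independent replicates. The correlation was 0.71 for the 8 Prdm1 sites, 0.18 for the 10 Irf4 sites, 0.85 for the 16 Xbp1 sites and 0.92 for the 12 Sdc1 sites. The midpoints lay a median of 21 bp apart, with 41 of 46 within 50 bp.

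The percentile was higher in plasmablasts at 15 of the 46 sites and higher in B cells at 31. The median difference, plasmablast minus B cell, was -3.31 points (order statistic interval -10.6 to -0.11), and the range was -47.9 to 51.6. Over all shared sites the median was -7.16, with 33.9% higher in plasmablasts, beside 32.6% of the members. The sign depends on the lists in which the percentile is taken: among autosomal shared sites alone the median of the members was 3.88 (interval -1.67 to 8.17). With both peaks at or above the median score of their list, 25 sites were left and the median was -0.14 (interval -3.69 to 11.8). No direction is therefore read from it. Differences over 25 points were found at 6 of the 46 sites (13.0%), beside 25.9% over all shared sites.

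**Figure D4:**
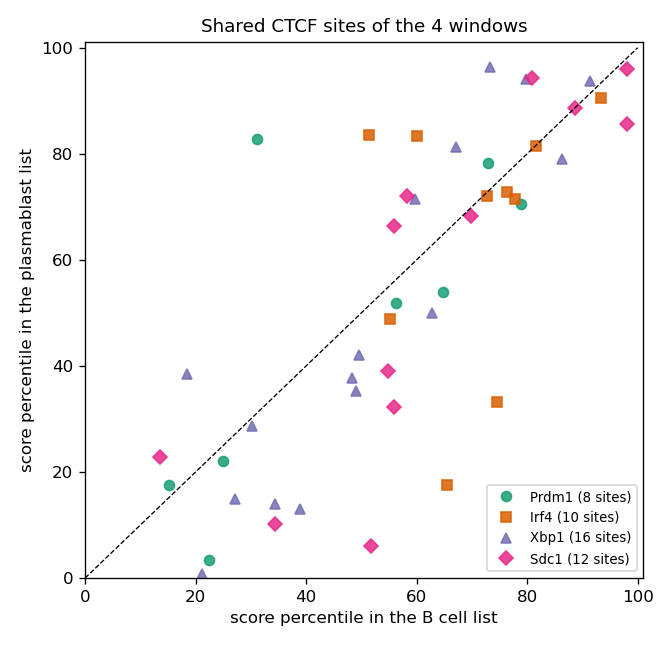
Score percentile of each of the 46 shared sites in the B cell list (horizontal) and the plasmablast list (vertical), by window, with the line of equal percentile. The point far above the line at the left is the Prdm1 site at the 31.1st B cell and 82.8th plasmablast percentile, and the 3 far below it are Irf4 and Sdc1 sites.

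Most unshared B cell members stood below the list median, as did most such peaks over the whole list. Of the 32 B cell-only peaks 27 (84.4%) had scores below the list median, beside 90.5% of all B cell-only peaks. Of the 17 plasmablast-only peaks 10 (58.8%) did, beside 74.9% over that list. Of the 7 that did not, 5 were in the Prdm1 window, 1 in the Irf4 window and 1 in the Sdc1 window. A midpoint of the other list lay within 500 bp for 1 of the 32 B cell-only and 1 of the 17 plasmablast-only peaks. These were the adjoining pair of the Prdm1 window. Over the whole lists it was 288 of 11679 B cell-only and 405 of 6384 plasmablast-only peaks. More than 10 kb lay between the unshared peak and the nearest peak of the other list for 17 of the 32 B cell-only peaks (53.1%, beside 60.1% over the list) and for 8 of the 17 plasmablast-only peaks (47.1%, beside 52.1%).

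Neighbouring sites with midpoints within 2 kb of each other were found 9 times in the 4 windows, a count made after the maps had been seen. In 6 of these pairs 1 site was shared and its companion was not, beside 42.4% of the 3357 such pairs of the whole lists, a count too small to read as a difference. The companion was listed in B cells only in 3 cases, 1 in the Prdm1 and 2 in the Xbp1 window. It was listed in plasmablasts only in the other 3, of which 2 were in the Prdm1 and 1 in the Irf4 window. No whole-list split of such companions is given here. Both sites were shared in 1 pair, in the Sdc1 window, beside 29.2% over the whole lists. Neither site was shared in 2 pairs, beside 28.3%. B cell peaks are 305 bp wide and plasmablast peaks 179 bp, and whether the lists resolve close peaks equally was not tested.

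The edges before the Prdm1 and Xbp1 windows left out strong neighbours. At the other edges the nearest outside peaks ranked lower. They lay from the 16.9th to the 72.7th percentile in B cells and from the 27.95th to the 79.4th in plasmablasts. Before the Prdm1 window the nearest site, 26.1 kb away, was shared and strong, with scores of 245.4 (94.5th percentile) and 59.5 (92.4th percentile), while the first members inside had 27.8 (24.9th) and 8.9 (22.0th). Before the Xbp1 window, 18.0 kb away, a shared site had scores of 269.5 (97.2nd percentile) and 49.1 (85.7th percentile). After the Irf4 window no B cell peak was listed before 31444697 and no plasmablast peak before 31651820.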

How the data were processed

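The data were 2 peak lists, 1 per CTCF library, each giving chromosome, start, end, name, score and strand. The submitters' processing notes name Bowtie, HOMER and build mm9. Their versions, the thresholds and how the input entered are not given in the sources at hand. For each peak, the score in the deposited lists is the authors' own and its unit is not stated, so it was used only as a percentile within a list (tied scores share their mean rank). Starts were read as BED and 1 was added. The 2 input libraries were not analysed here, and depth is unknown.

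Peaks were assigned to windows by midpoint and called shared at 1 bp of overlap, which bedtools 2.31.1 matched with 24702 shared peaks in either list. The overlap call was run on simulated peaks that were either kept near their place or moved several kb away. Offsets between these, such as those of adjoining peaks, were not simulated by design. Shares have exact (Clopper-Pearson) 95% intervals, and medians have binomial order statistic intervals. Peaks named are, per window, the 3 shared sites of highest mean percentile, the strongest unshared peak of each list, the largest percentile differences and the edge peaks. Others named, among them the further unshared peaks of the Prdm1 window, the shared and unshared runs and the close pairs, were chosen after their values were seen. The windows and genes were chosen with earlier results of these data known. RefSeq tables on GRCm38.p6 gave gene order and promoters. Python 3.11.15, numpy 2.4.6, pandas 2.3.3, scipy 1.17.1 and matplotlib 3.10.9 were used.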

Additional observations from a re-analysis of the deposited data

How the results depend on the processing

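Of 47 alternatives, 41 kept the value within its interval or, for counts of sites, within 1.5 times. Among B cell members at or above their list's median score, 86.1% were shared with the whole plasmablast list, in place of 59.0%. With both lists restricted in that way, an alternative chosen after seeing the data, the shared percentages were 69.4% for B cell and 75.8% for plasmablast members. No whole-list share under that restriction is given here, so these 2 values cannot be placed against the lists. Requiring both peaks of a site to be at or above the median gave 4 shared sites in the Prdm1 window in place of 8, 7 in place of 16 in the Xbp1 window and 7 in place of 12 in the Sdc1 window. Fewer peaks enter under that filter by its construction. Narrowing the windows by 100 kb at both ends left 5 shared sites around Prdm1. The median percentile difference was -0.14 over sites with both peaks at or above the median. It reversed from -3.31 to 3.88 when percentiles were taken among autosomal shared sites. Over the whole lists, shared peaks had a median percentile of 65.4 in B cells and 56.1 in plasmablasts. The cause of the reversal was not tested. Ranking peaks by the number in their names, also chosen after seeing the data, gave -5.88. The overlap rule (50% reciprocal, or midpoints within 100 or 500 bp) moved the B cell percentage between 53.8% and 60.3% and the plasmablast percentage between 66.7% and 74.6%. No paired analysis was possible because each cell type had 1 CTCF library, and leaving out a replicate was not possible for the same reason. The unknown depth limits what a missing peak can show.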

Other observations

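The number in a peak's name followed its score almost exactly in the B cell list and slightly less so in the plasmablast list. Over the chromosomes of the 4 windows the rank correlation between them was 1 to 2 decimals in B cells and ran from 0.97 on chromosome 12 to 0.98 on chromosome 10 in plasmablasts. These are correlations across 1181 to 2440 plasmablast peaks of 1 library each and are given as a description. What the numbers rank was not stated in the sources used here.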
